A study of Homo sapiens with 6 samples.

Results

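The genes of the immunoproteasome and of peptide loading onto MHC class I molecules were followed in HT-29 cells after treatment with 5-Aza. They comprise 10 genes chosen by their symbol, of 20031 genes with a probe set on the array: PSMB8, PSMB9, PSMB10, PSME1, PSME2, TAP1, TAP2, TAPBP, NLRC5 and ERAP1. They were chosen with earlier results of these data known. Every probe set annotated to one of these symbols was taken, which gave 19 of 54614 probe sets. All 10 genes were measured, and 14 of the 19 probe sets lay above the background level of the same array on all 6 arrays. HT-29 is a human colorectal adenocarcinoma cell line, and 5-Aza (5-aza-2′-deoxycytidine) is a cytidine analog that traps DNA methyltransferases on the DNA of dividing cells. In the treated group, HT-29 cells were exposed to 10 µM 5-Aza during 72 hours in medium without serum, and the control group holds RNA of HT-29 control cells that received the solvent alone, water and acetate. Each group has 3 HGU133 Plus 2.0 arrays. All cells were of a single cell line, a single dose and a single time point.

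The proteasome is a barrel-shaped protease whose inner rings hold the catalytic subunits. In cells that see interferon gamma, and constitutively in many immune cells, the catalytic subunits encoded by PSMB5, PSMB6 and PSMB7 give way to PSMB8, PSMB9 and PSMB10, and the resulting immunoproteasome produces more peptides with the C-terminal residues that class I molecules bind. The TAP1 and TAP2 proteins carry these peptides into the endoplasmic reticulum, tapasin (TAPBP) helps load them, and the aminopeptidase ERAP1 trims them to length. NLRC5 is the transcriptional coactivator of class I genes and of several of the genes followed here. Loss of this machinery is a known route by which colorectal tumours escape T cells.

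In the strongest probe set of each gene, signals of the peptide transport, loading and trimming genes TAP1, TAP2, TAPBP and ERAP1 were 1.38 to 1.57 times as high in 5-Aza-treated cells (ratio of mean signals). A second TAP2 probe set went the other way. With the probe sets of a gene averaged, the log2 fold change of TAP2 went from 0.58 to 0.19 and that of ERAP1 from 0.66 to 0.18. Neither was then past the unadjusted threshold of 0.025. The average for TAPBP was 0.50 and passed it, with an unadjusted p of 0.0112 in limma. PSMB9 was 2.91 times as high with a wide error, and the groups overlapped for PSMB10, PSME1 and NLRC5. No probe set of these genes passed an adjusted p under 0.05 in limma (Benjamini-Hochberg over all probe sets), where 0 percent of all 54614 probe sets passed and the smallest adjusted p of any was 0.0903. The adjusted p of the 19 probe sets ran from 0.543 to 0.996. With trend and robust variances in limma 0 of the 19 passed, of 23 probe sets in all, and a SAM-type statistic called 0 of all probe sets. All values given here are therefore differences between 3 and 3 arrays that did not pass the correction for multiple testing. In such bulk RNA, a change in a few cells and a change in RNA per cell cannot be told apart. The study's methods took, by SAM, the probe sets with the highest fold changes at p under 0.025 for these cells. At an unadjusted limma p under 0.025, used here without the rank by fold change, 3 of the 19 probe sets were higher (TAP1, one of TAP2 and one of ERAP1), beside 2.97 percent of all probe sets, and 0 were lower, beside 1.05 percent. With that threshold at 0.05, there were 4 higher probe sets and 1 lower one, beside 2873 higher and 1078 lower of all 54614 probe sets.

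In 8 of the 19 probe sets every 5-Aza array lay above every control array, beside 9.29 percent of all probe sets, and in 1 every 5-Aza array lay below, beside 5.22 percent. The groups overlapped in the other 10. With 1 probe set for each gene, the one with the strongest signal, 3 of the 10 genes were higher at an unadjusted p under 0.025 (3.01 percent of all genes) and 0 were lower (0.894 percent). The groups did not overlap for 7 of the 10 genes, all higher (9.91 percent of all genes were higher on every 5-Aza array, and 6.86 percent lower). The mean log2 signal of 8 of the 10 genes was above the median of all probe sets, and among all genes above that median 10.3 percent were higher and 9.54 percent lower on every 5-Aza array. The median log2 fold change of the 10 genes was 0.42, and that of all genes 0.038. Since the genes were chosen with earlier results of these data known, these shares are no independent test of them.

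The median signal of an array was 83.3 to 86.1 in the 5-Aza group and 71.8 to 76.9 in the control group, although all 6 arrays were scaled to the same mean of 500. Centring each array on its median signal lowered all fold changes, to a median of 0.23 for the 10 genes and -0.15 for all genes. After this centring 0 of the 10 genes passed the unadjusted threshold, 3 were higher and 1 was lower without overlap, so the number of genes called higher depends on how the arrays are scaled. The count also fell when 1 array was left out. It was 0 of the 10 genes without any one of the 5-Aza arrays or without control 2, 1 without control 1 and 2 without control 3. Leaving out any array also weakens the test, so a lost call need not come from the array left out. The log2 fold changes stayed at 0.50 to 0.62 for TAP1, 0.51 to 0.65 for TAP2 225973_at and 0.53 to 0.77 for ERAP1 209788_s_at. Quantile normalization gave a median of 0.38, with all genes at -0.005. With it 3 of the 10 genes passed the unadjusted threshold, and 5 were higher and 0 lower without overlap. The matching shares of all genes under median centring or quantile normalization are not given here.

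**Figure D1:**
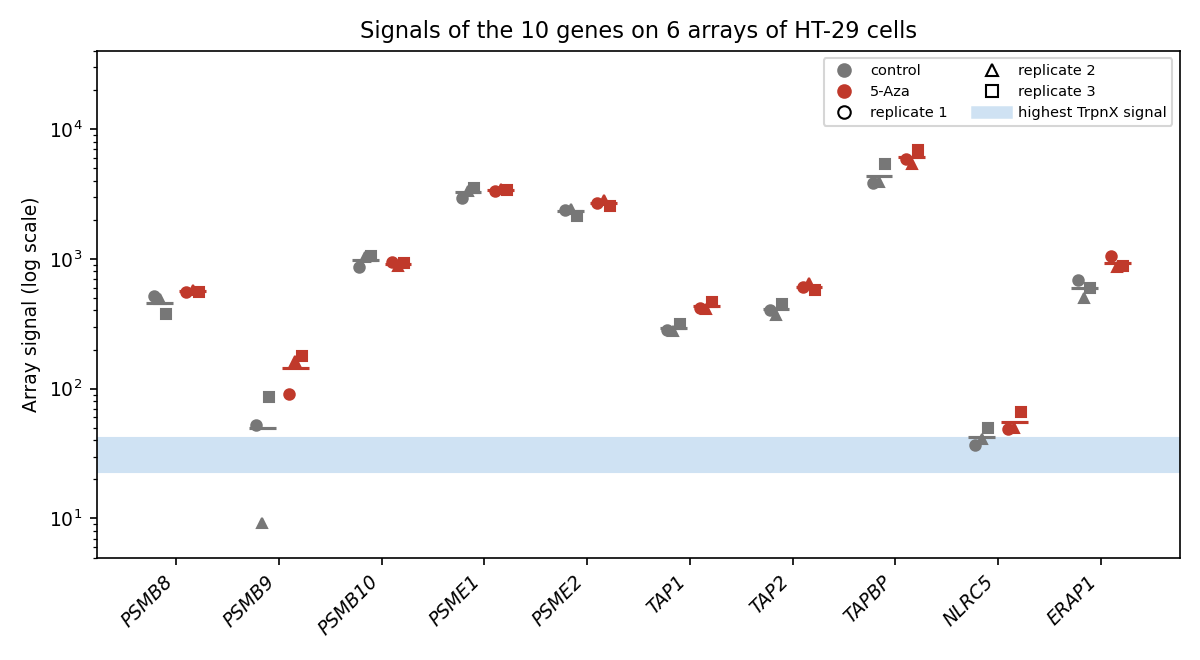
Array signal (log scale) of 1 probe set for each of the 10 genes, on 3 control arrays (grey) and 3 arrays of 5-Aza-treated cells (red), with horizontal lines at the group means and marker shapes for the replicate number. The blue band spans the highest signals of the bacterial TrpnX control probe sets over the 6 arrays, the background level. The groups overlap for PSMB10, PSME1 and NLRC5 and do not for the other 7 genes, and the control 2 value of PSMB9 lies below the band.

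Interferons act on many of these genes through short DNA motifs near the gene start, and 5-Aza traps DNA methyltransferases, which act on CpG pairs. The sequences before the gene starts were therefore examined for such motifs and for CpG pairs. RefSeq sequences (GRCh38.p14) of the 250 bases upstream of the annotated start were given for 9 of the 10 genes, in 12 windows, since PSMB8, TAP1 and ERAP1 have 2 annotated starts each. The core of the interferon-stimulated response element (ISRE), searched as GAAANNGAA on both strands, was found in a window of 5 of these genes: PSMB10, PSME2, TAP1, TAP2 and TAPBP. It is present in 6.88 percent of 35116 promoter windows of the same length. A match to the NF-kB consensus was found in 3 genes, TAP1, TAPBP and ERAP1 (9.96 percent of all windows), and the gamma-activated site TTCNNNGAA in 2, at the second start of PSMB8 and of TAP1 (6.57 percent). The 5 windows with the ISRE core are shown to compare where it lies, together with that of PSMB9, which has no match but adjoins TAP1. They run 5′ to 3′ on the strand of the gene and end at the base before its start, and capitals mark matches to the ISRE core or the NF-kB consensus.
TAP1 (chr6:32853705-32853954, minus strand): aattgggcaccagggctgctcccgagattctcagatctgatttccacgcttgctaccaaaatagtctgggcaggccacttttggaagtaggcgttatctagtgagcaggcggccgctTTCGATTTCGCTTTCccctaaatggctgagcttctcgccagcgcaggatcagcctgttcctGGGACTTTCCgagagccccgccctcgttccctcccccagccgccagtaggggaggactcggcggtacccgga
PSMB9 (chr6:32853942-32854191, plus strand): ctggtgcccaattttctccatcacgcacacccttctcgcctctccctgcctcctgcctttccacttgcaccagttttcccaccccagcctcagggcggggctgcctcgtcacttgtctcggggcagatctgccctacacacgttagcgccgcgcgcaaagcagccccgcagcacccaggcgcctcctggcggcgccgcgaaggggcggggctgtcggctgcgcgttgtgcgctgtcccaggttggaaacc
TAP2 (chr6:32838740-32838989, minus strand): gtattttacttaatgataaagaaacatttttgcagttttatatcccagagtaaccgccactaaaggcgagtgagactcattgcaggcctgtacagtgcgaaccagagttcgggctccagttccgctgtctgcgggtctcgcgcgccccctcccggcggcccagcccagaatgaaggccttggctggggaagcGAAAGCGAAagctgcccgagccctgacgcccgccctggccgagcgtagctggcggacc
TAPBP (chr6:33314079-33314328, minus strand): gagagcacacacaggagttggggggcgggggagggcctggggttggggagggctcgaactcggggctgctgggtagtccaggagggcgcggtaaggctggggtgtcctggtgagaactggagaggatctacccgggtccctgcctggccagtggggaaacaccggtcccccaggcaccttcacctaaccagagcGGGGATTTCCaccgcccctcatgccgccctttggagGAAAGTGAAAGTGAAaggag
PSME2 (chr14:24146611-24146860, minus strand): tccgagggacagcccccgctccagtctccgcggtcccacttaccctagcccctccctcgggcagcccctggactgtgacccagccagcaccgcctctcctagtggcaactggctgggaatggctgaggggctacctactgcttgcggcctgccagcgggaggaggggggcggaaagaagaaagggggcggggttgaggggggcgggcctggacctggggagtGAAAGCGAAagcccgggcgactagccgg
PSMB10 (chr16:67936851-67937100, minus strand): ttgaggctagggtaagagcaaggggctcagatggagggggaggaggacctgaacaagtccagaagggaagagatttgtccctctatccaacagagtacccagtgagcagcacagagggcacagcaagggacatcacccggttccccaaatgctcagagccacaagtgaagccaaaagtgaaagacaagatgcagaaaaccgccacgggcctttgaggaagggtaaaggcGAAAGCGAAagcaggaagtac
On the opposite strand, the ISRE core of TAP1 was matched at 2 overlapping places that end 125 and 119 bases before the start. On the printed strand this stretch reads TTCGATTTCGCTTTC. The NF-kB match of TAP1 began 72 bases before the start. In TAPBP the core was also matched at 2 overlapping places, from -20 to -6, with the NF-kB match at -56. A single ISRE core began at -58 in TAP2, at -28 in PSME2 and at -21 in PSMB10, and in these 3 genes the matched letters were the same, GAAAGCGAA. The TAP1 match that ends 119 bases before the start has the same letters, on the opposite strand. The windows of PSMB8, PSMB9, PSME1 and ERAP1 held no such letters, which says only that these letters are not in these bases. A match is a description of the sequence and does not show that a factor binds it in HT-29 cells.

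TAP2, PSMB8, TAP1 and PSMB9 are neighbouring protein-coding genes in this order on chromosome 6, within the MHC class II region. TAP1 and PSMB9 are read in opposite directions from starts 488 bases apart, so that the far ends of their windows overlap. The window of PSMB9 held 21 CpG pairs, the dinucleotides that DNA methyltransferases act on, in 250 bases. TAP1 had 16 and TAP2 19, PSME1 and the first start of ERAP1 25 each, PSME2 15 and TAPBP 10. PSMB10 had 5 CpG pairs, the fewest of the 9 genes except for the second start of ERAP1 with 3. Over all 35116 windows the median was 11, with quartiles of 3 and 23. DNA methylation of these windows was not measured on the arrays.

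**Figure D2:**
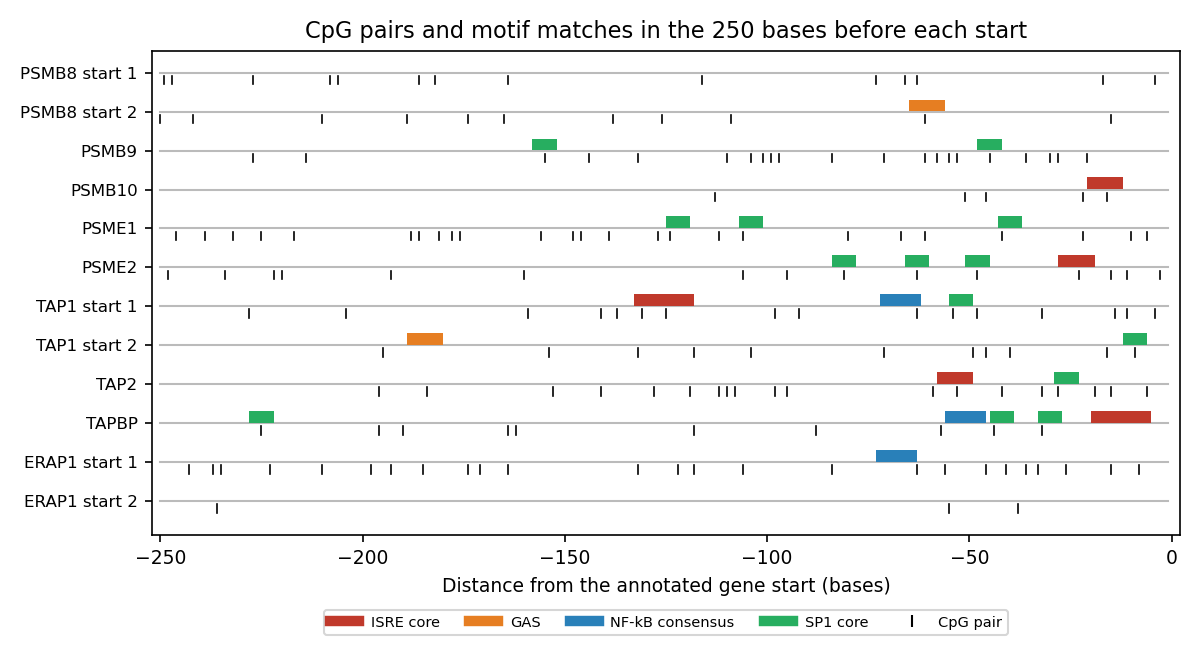
Position of CpG pairs (black ticks below each line) and of matches to the ISRE core, the gamma-activated site (GAS), the NF-kB consensus and the SP1 core GGGCGG (coloured bars above each line) in the 250 bases before the annotated starts of 9 genes. The x axis is the distance from the start in bases. ISRE cores lie in the windows of PSMB10, PSME2, TAP1 (start 1), TAP2 and TAPBP, within 58 bases of the start except in TAP1.

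Of the catalytic subunits of the immunoproteasome, PSMB8 (also LMP7, the subunit that cuts after hydrophobic residues) had signals of 553.0, 575.3 and 558.0 on the 5-Aza arrays and 513.5, 489.9 and 373.8 on the control arrays. All treated arrays lay above all control arrays, with control 3 the farthest below. The means were 562 ± 11.7 and 459 ± 74.8 (SD, n = 3 each). The log2 fold change was 0.30 (SE 0.18, 95% interval -0.14 to 0.75), with an adjusted p of 0.782 in limma. It was 0.16 without control 3 and 0.12 after median centring.

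PSMB9 (LMP2), the subunit that takes the place of PSMB6, had signals of 90.8, 162.2 and 178.7 with 5-Aza and 52.9, 9.2 and 86.0 in controls. All treated arrays again lay above all controls, but 5-Aza 1 exceeded control 3 by little, and control 2 lay below the background level of its own array, 33.5. The means were 144 ± 46.7 and 49.4 ± 38.5 (SD, n = 3 each). The log2 fold change of 1.94 (SE 0.86, 95% interval -0.22 to 4.10) rests largely on that control array and was 1.02 without it. It did not pass, with a p of 0.0700 and an adjusted p of 0.723 in limma.

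PSMB10 (MECL-1), which replaces PSMB7, had signals of 941.0, 872.0 and 921.1 with 5-Aza and 861.7, 1034.0 and 1050.2 in controls. The groups overlapped, and the log2 fold change was -0.10 (SE 0.15, 95% interval -0.49 to 0.28). It was the only one of the 10 genes with a value below 0, a value within its error. Differences in fold change between the 3 immunoproteasome subunits were not tested.

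The constitutive subunits whose places they take had lower mean signals with 5-Aza. PSMB5 had signals of 3233.6, 3210.8 and 3253.8 with 5-Aza and 4015.3, 4028.8 and 3835.6 in controls, without overlap, and its log2 fold change was -0.29 (SE 0.13), adjusted p = 0.723 in limma. PSMB6 had 4844.3, 4711.0 and 4992.2 against 5265.6, 6606.8 and 5619.2, also without overlap, at -0.26 on the log2 scale (SE 0.15), adjusted p = 0.788 in limma. PSMB7 overlapped between groups at -0.14 (SE 0.16).

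The log2 difference between an immunoproteasome subunit and its constitutive counterpart on the same array is not altered by a constant scaling factor for each array, though a quantile normalization could alter it. For PSMB8 minus PSMB5 it was -2.55, -2.48 and -2.54 with 5-Aza and -2.96, -3.04 and -3.36 in controls. The treated arrays all lay higher, by 0.60 in the mean (exact permutation p = 0.1, the smallest that 3 against 3 arrays allow, and 0.3 adjusted over the 9 pairs compared). For PSMB9 minus PSMB6 it was -5.72, -4.85 and -4.80 against -6.61, -9.34 and -6.01, higher by 2.20 without overlap (exact permutation p = 0.1, adjusted 0.3), and by 1.19 without control 2. For PSMB10 minus PSMB7 the groups overlapped, with a difference of 0.039 (exact permutation p = 0.8, adjusted 0.9). Such a difference shows that the signals of a pair of genes were unequally shifted, and not which of them was.

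**Figure D3:**
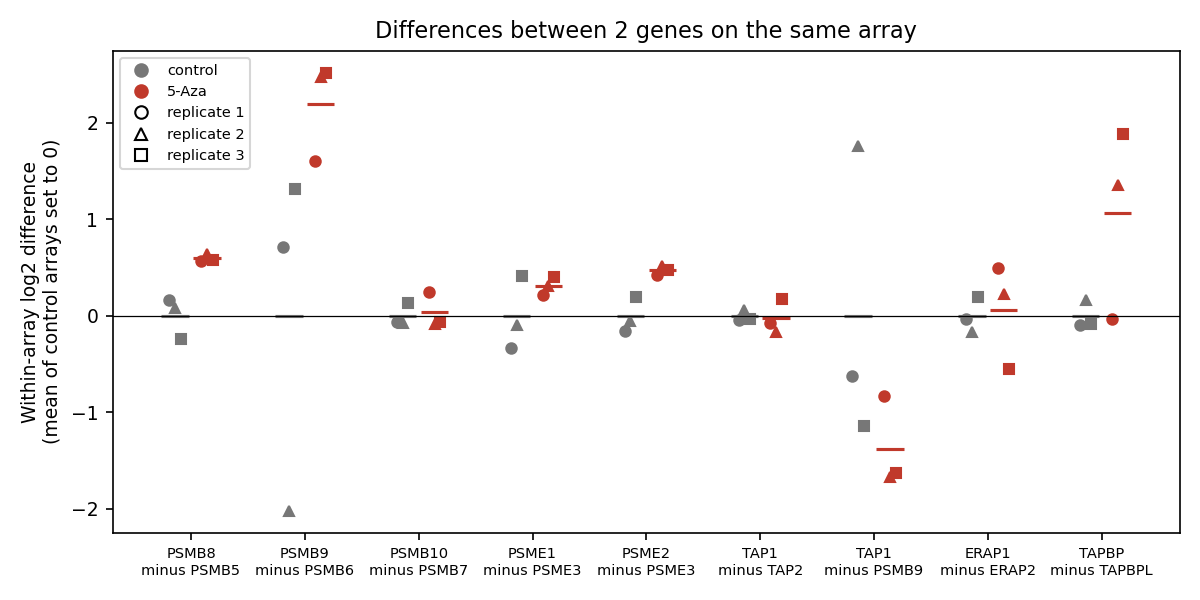
Log2 signal of one gene minus that of another on the same array, for 9 pairs, with the mean of the 3 control arrays (grey) set to 0 and the 3 arrays of 5-Aza-treated cells in red (lines at group means, shapes for the replicate number). The treated arrays lie above all controls for PSMB8 minus PSMB5 (0.60), PSMB9 minus PSMB6 (2.20) and PSME2 minus PSME3 (0.47), and the groups overlap for the other 6 pairs.

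PSME1 and PSME2 encode the alpha and beta subunits of PA28, a cap that opens the proteasome and is induced by interferon gamma. PSME1 had signals of 3307.3, 3443.9 and 3403.4 with 5-Aza and 2958.2, 3302.7 and 3483.4 in controls. The controls spanned all treated values, and the log2 fold change of 0.063 (SE 0.14) turned to -0.12 with arrays centred on their median. PSME2 had signals of 2699.3, 2820.8 and 2549.8 against 2373.7, 2422.2 and 2149.4. Here every treated array lay above every control, with means of 2690 ± 136 and 2315 ± 146 (SD, n = 3 each), and a log2 fold change of 0.22 (SE 0.14, 95% interval -0.14 to 0.57, adjusted p = 0.801 in limma). After median centring it was 0.03. The probe set of PSME2 is also annotated to MIR7703, a microRNA gene that lies within PSME2, so the 2 genes cannot be told apart by it.

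Both were set against PSME3, which encodes the gamma subunit of a nuclear form of the same cap. PSME2 minus PSME3 was 0.93, 1.03 and 0.99 on the 5-Aza arrays and 0.35, 0.46 and 0.71 on the controls, higher by 0.47 without overlap (exact permutation p = 0.1, adjusted 0.3). PSME1 minus PSME3 overlapped, with a difference of 0.32 (exact permutation p = 0.4, adjusted 0.6) that ranged from 0.15 to 0.52 without 1 array, lowest without control 1. PSME3 itself overlapped between groups at -0.25 (SE 0.19) in the probe set used and at -0.12, 0.049 and 0.015 in the other 3. With probe sets averaged the differences were 0.29 for PSME2 and 0.14 for PSME1.

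TAP1, a subunit of the peptide transporter, had signals of 416.1, 412.0 and 466.7 with 5-Aza and 282.4, 278.1 and 316.3 in controls. The lowest treated array stood well above the highest control, and the spread within each group was small. Means were 432 ± 30.5 and 292 ± 20.9 (SD, n = 3 each), a ratio of 1.48. The log2 fold change was 0.56 (SE 0.15, 95% interval 0.19 to 0.93), with a p of 0.0107 and an adjusted p of 0.543 in limma. Without any single array it stayed between 0.50 and 0.62, and after median centring it was 0.37.

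TAP2, the other subunit of the transporter, is represented by 4 probe sets that did not behave alike. The strongest, 225973_at, had signals of 608.2, 647.2 and 576.8 with 5-Aza and 405.6, 372.1 and 451.7 in controls. It separated the groups as TAP1 did, with means of 611 ± 35.3 and 410 ± 40.0 (SD, n = 3 each), a ratio of 1.49. The log2 fold change was 0.58 (SE 0.15, 95% interval 0.20 to 0.96), with a p of 0.0110 and an adjusted p of 0.545 in limma.

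A second TAP2 probe set, 204769_s_at, went the other way, with signals of 119.9, 152.9 and 135.2 against 193.3, 225.2 and 169.2. Every treated array lay below every control, at a log2 fold change of -0.52 (SE 0.19, 95% interval -0.99 to -0.053), with a p of 0.0349 and an adjusted p of 0.653 in limma. The direction of TAP2 therefore depends on the probe set, and the average of the TAP2 probe sets gave 0.19 with a p of 0.631 in limma. Probe set 204770_at overlapped between groups at 0.39 (SE 0.38), and 208428_at was above background on only 1 of the 6 arrays. TAP1 minus the strongest TAP2 probe set was -0.55, -0.65 and -0.30 with 5-Aza and -0.52, -0.42 and -0.51 in controls, a difference of -0.017 (exact permutation p = 0.8, adjusted 0.9). TAP1 minus PSMB9, the pair read from one intergenic stretch, differed by -1.38 with overlapping groups (exact permutation p = 0.2, adjusted 0.36), and by -0.50 without control 2, where PSMB9 was below background.

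TAPBP encodes tapasin, which bridges the transporter and class I molecules that await a peptide. Its strongest probe set, 208829_at, had signals of 5840.0, 5360.8 and 6885.7 with 5-Aza and 3843.6, 3899.0 and 5352.8 in controls. Control 3 nearly reached the lowest treated array. Means were 6029 ± 780 and 4365 ± 856 (SD, n = 3 each), a log2 fold change of 0.48 (SE 0.21, 95% interval -0.046 to 1.00, adjusted p = 0.721 in limma).

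The other 2 TAPBP probe sets gave fold changes of like size. Probe set 1555565_s_at had signals of 687.7, 698.3 and 610.3 against 444.3, 556.3 and 419.9, all treated arrays above all controls, at 0.50 (SE 0.18), adjusted p = 0.650 in limma. Probe set 210294_at had 197.7, 177.9 and 127.6 against 118.7, 96.4 and 132.8, which overlap, at 0.52 (SE 0.24). The average of the TAPBP probe sets gave 0.50, with an unadjusted p of 0.0112 in limma. The tapasin-related editing protein gene TAPBPL was above background on 2 of the 6 arrays, so its pair with TAPBP carries little information.

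ERAP1, the aminopeptidase of the endoplasmic reticulum that shortens peptides from the N-terminus, is represented by 5 probe sets. Its strongest probe set, 209788_s_at, had signals of 1056.6, 859.8 and 880.9 with 5-Aza and 687.3, 494.9 and 600.0 in controls. The groups did not overlap, and means were 932 ± 108 and 594 ± 96.3 (SD, n = 3 each), a ratio of 1.57. The log2 fold change was 0.66 (SE 0.19, 95% interval 0.17 to 1.14), with a p of 0.0170 and an adjusted p of 0.589 in limma.

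The other 4 ERAP1 probe sets all overlapped between groups. Probe set 210385_s_at, above background on all 6 arrays, gave 0.28 on the log2 scale (SE 0.23) and 209701_at gave 0.49 (SE 0.45). Probe set 214012_at gave 0.018 (SE 0.46), and 214034_at was at or under background on all 6 arrays. The average of the ERAP1 probe sets gave 0.18, with a p of 0.456 in limma.

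ERAP2, which encodes a related aminopeptidase and lies beside ERAP1 on chromosome 5, had signals of 1455.7, 1430.2 and 2510.0 against 1365.8, 1083.9 and 1014.2. Its treated arrays also lay above all controls, led by 5-Aza 3, at 0.60 on the log2 scale (SE 0.29), adjusted p = 0.740 in limma. Another 2 ERAP2 probe sets, named after their values were seen, separated the groups more clearly. Probe set 227462_at had signals of 1642.0, 1495.0 and 1630.5 against 933.9, 811.0 and 872.3, at 0.87 on the log2 scale (SE 0.14), with an unadjusted p of 0.00137 and an adjusted p of 0.307 in limma. Probe set 235104_at had signals of 559.1, 446.8 and 483.2 against 245.5, 227.1 and 254.4, at 1.03 (SE 0.16), with an unadjusted p of 0.000965 and an adjusted p of 0.280 in limma. The strongest probe set of ERAP1 minus that of ERAP2 differed by 0.057 between groups (exact permutation p = 0.9, adjusted 0.9), and by -0.72 with probe sets averaged.

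NLRC5, the class I coactivator, gave weak signals of 48.7, 50.1 and 66.6 with 5-Aza and 36.5, 41.2 and 49.8 in controls. All 6 were above the background of their own array, which ranged from 22.6 to 42.0, and the groups overlapped because control 3 exceeded 5-Aza 1. Means were 55.1 ± 9.96 and 42.5 ± 6.74 (SD, n = 3 each), a log2 fold change of 0.36 (SE 0.21, 95% interval -0.16 to 0.89, adjusted p = 0.779 in limma). It was 0.15 with quantile normalization, 0.18 with median centring and 0.22 without 5-Aza 3.

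**Figure D4:**
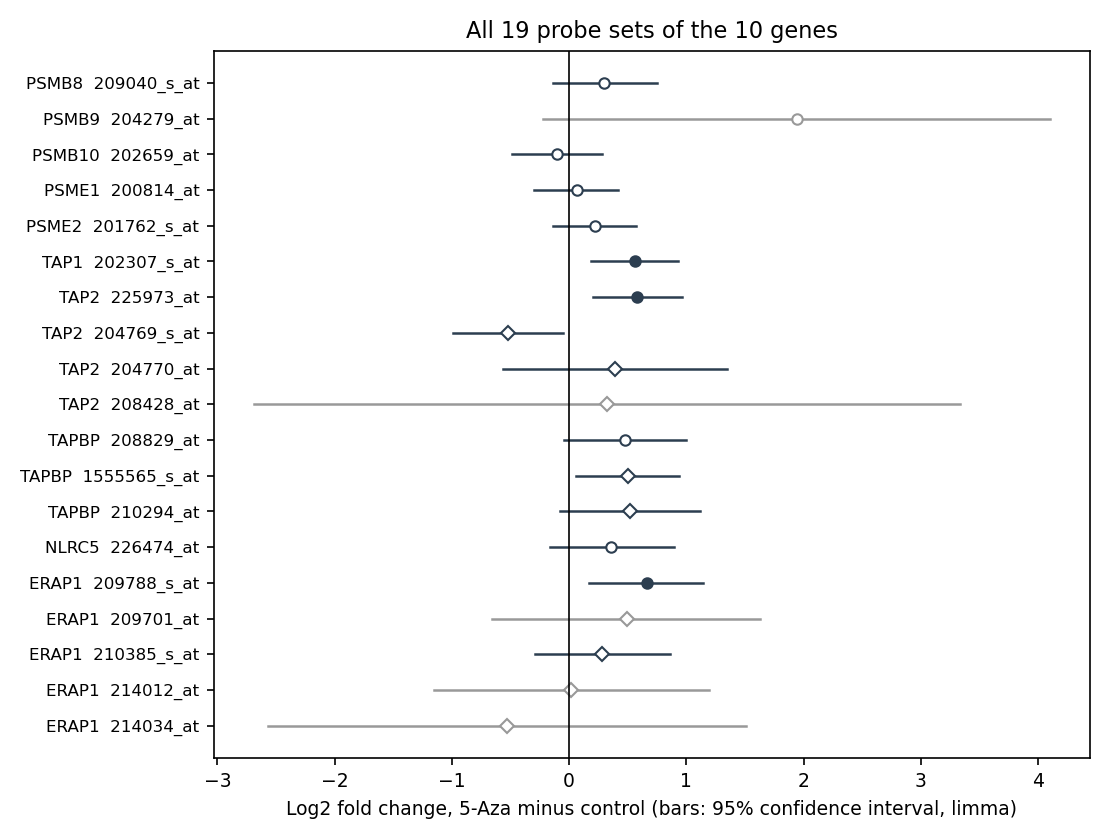
Log2 fold change (5-Aza minus control) with its 95% confidence interval from limma for all 19 probe sets of the 10 genes. Circles mark the probe set with the strongest signal of each gene and diamonds its other probe sets, filled symbols have an unadjusted p under 0.025, and grey marks probe sets not above background on all 6 arrays. The 3 filled symbols are TAP1 (0.56), TAP2 (0.58) and ERAP1 (0.66), and TAP2 204769_s_at lies on the other side of 0.

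Genes that act beside these in the same pathway were summarised with 1 probe set each. The genes encoding the rest of the proteasome had medians near that of all genes. Of 10 other genes of the 20S core, 0 passed the unadjusted threshold in either direction, and the median log2 fold change was -0.0094. PSMA4 and PSMA3 were higher without overlap, at 0.26 (SE 0.14) and 0.14 (SE 0.14), and PSMB3 was lower at -0.14 (SE 0.14). Of 15 genes of the 19S regulatory particle, which recognises and unfolds ubiquitinated proteins, 0 passed and the median was -0.052. The largest values there were 0.19 (SE 0.15) for PSMD14, a deubiquitinase, and 0.17 (SE 0.13) for PSMC2, an ATPase subunit. Of 8 other activator and assembly genes 0 passed, the groups overlapped for all, and the median was -0.10, with PSME3 at -0.25 and the assembly chaperone PSMG3 at -0.16 (SE 0.17). The summed signal of the 3 constitutive catalytic subunits was 15369 to 17056 on the 5-Aza arrays and 17573 to 20596 on the controls.

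Of 13 other genes of peptide loading and trimming, which include the chaperones CALR, CANX and PDIA3, 0 passed in the probe set used. Their median was -0.0085, and ERAP2 and TAPBPL (-0.60, SE 0.51, near background) had the largest fold changes. Of the 6 measured genes of class I heavy chains and B2M, 0 passed in the probe set used. All had log2 fold changes above 0 there, and the median was 0.37. Those with the largest values were HLA-F, at 0.70 (SE 0.36), with signals of 87.0, 66.0 and 97.1 against 31.1, 58.3 and 70.4, and HLA-G, at 0.44 (SE 0.24), both overlapping. The value of HLA-F is that of its weak single-gene probe set, and its other 2, of the _x_at kind, gave -0.072 (SE 0.30) and 0.13 (SE 0.18). The 3 without overlap were B2M, HLA-B and HLA-C, named here after their values were seen. B2M, the light chain shared by class I molecules, had signals of 30578.6, 31868.3 and 33031.1 against 25145.2, 26267.3 and 22581.7, or 0.37 on the log2 scale (SE 0.14), adjusted p = 0.679 in limma. In the probe sets used, B2M was the only one of these 6 genes called at an unadjusted p under 0.05. Of all 20031 genes, 1058 were higher and 371 lower at that threshold. The lists of proteasome, loading and trimming genes above had 0 calls at it. Probe sets not used were not counted. Among them, HLA-C 216526_x_at was at 0.49 (SE 0.15, unadjusted p = 0.019 in limma), without overlap. CALR 214315_x_at was at 0.57 (SE 0.18, unadjusted p = 0.0205 in limma), also without overlap. Both were named after their values were seen. The probe sets of HLA-B, HLA-C and HLA-G are of the _x_at kind, whose probes match several similar genes, so these loci cannot be told apart.

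Of 16 genes of interferon gamma signalling and class I transcription, 1 passed the unadjusted threshold, IFNGR1, which encodes the ligand-binding chain of the interferon gamma receptor. Its signals were 3416.1, 3330.4 and 3442.7 with 5-Aza and 2438.2, 2684.2 and 2506.8 in controls, without overlap. The log2 fold change was 0.42 (SE 0.13), with a p of 0.0236 and an adjusted p of 0.611 in limma. IFNGR1 probe sets 211676_s_at and 242903_at, named after their values were seen, were also higher without overlap. They were at 0.41 (SE 0.16) and 0.63 (SE 0.20), with adjusted p of 0.68 and 0.609 in limma. The median of the list was 0.076. Its other genes without overlap, named after their values were seen, were IFNGR2 at 0.21 (SE 0.15), and on the lower side IRF8 at -1.78 (SE 0.60), NFYA at -0.43 (SE 0.16) and RFXANK at -0.22 (SE 0.14). IRF8 had signals of 63.5, 15.9 and 20.7 against 88.1, 70.4 and 150.9, above background on 1 treated array and 3 controls. IRF1, the interferon-induced factor that binds the ISRE core, had signals of 509.4, 528.0 and 515.7 against 510.2, 499.9 and 500.6, a log2 fold change of 0.040 (SE 0.13) with overlapping groups. A second IRF1 probe set, 238725_at, had signals of 457.9, 397.3 and 333.2 against 328.8, 243.0 and 332.6. Its groups did not overlap, though 5-Aza 3 barely exceeded control 3. The log2 fold change there was 0.40 (SE 0.21, adjusted p = 0.767 in limma), so the value of IRF1 depends on the probe set. IRF1 was chosen after its values were seen, for the motif described above. Of the 7 interferon genes measured, 0 passed, IFNA1 and IFNB1 were at or under background on all 6 arrays, IFNG was above it on 1, and IFNL1 was above it on all 6, with signals of 63.2, 77.7 and 52.3 against 51.1, 73.3 and 98.1. The median log2 fold change of these genes was -0.83, mostly of signals near background.

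**Figure D5:**
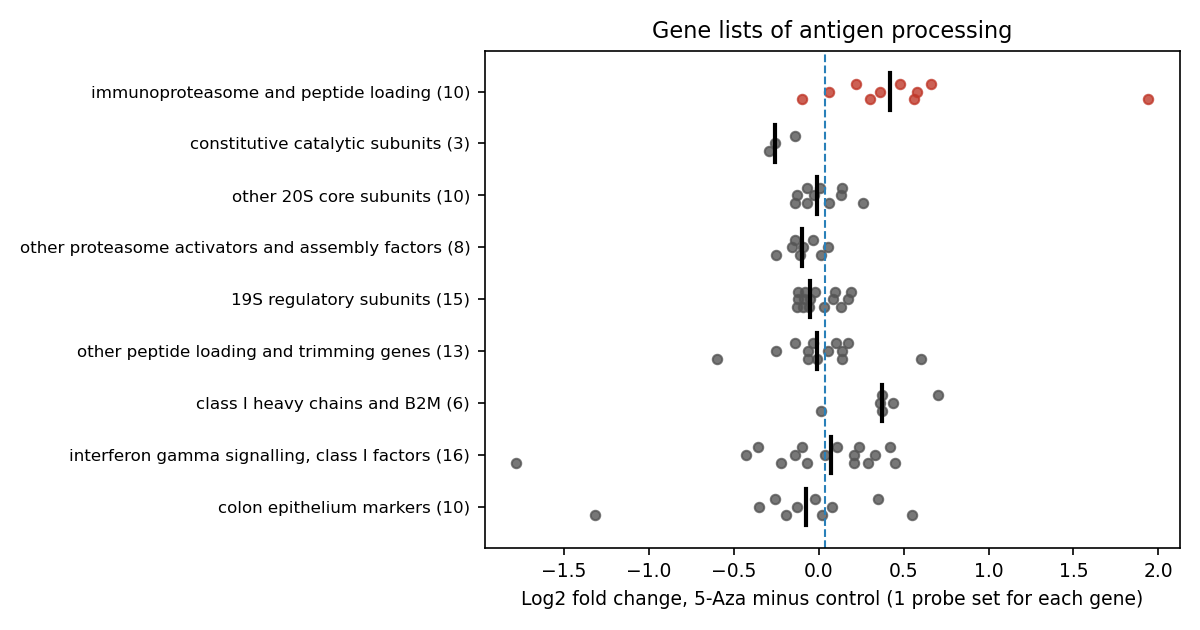
Log2 fold change (5-Aza minus control) of single genes, 1 probe set each, in 9 of 11 gene lists (interferon genes, with a median of -0.83, and immune and stromal markers, with 0.28, are not drawn) with the number of measured genes in parentheses. Black bars mark the median of a list and the dashed blue line the median of all 20031 genes (0.038). The median lies at 0.42 for the immunoproteasome and loading genes (red), at 0.37 for class I heavy chains and B2M, at -0.26 for the constitutive catalytic subunits, and between -0.10 and 0.076 for the other 6 lists drawn.

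Colon epithelium markers were mostly above background in both groups, 8 of 10 on all 6 arrays, while CDX1 was above it on none. EPCAM had signals of 25066.4, 22384.0 and 27198.1 against 25742.4, 25078.4 and 19976.2. Of the 10, 0 passed the unadjusted threshold, 4 had log2 fold changes above 0 and 6 below, from -1.32 to 0.55 with a median of -0.076. Without overlap, 1 was higher and 2 were lower with 5-Aza. Of 13 immune and stromal markers 3 were above background on all 6 arrays. Of the 13, 8 had log2 fold changes above 0 and 5 below, with a median of 0.28. PTPRC, the pan-leukocyte marker, was above background on 1 array and CD163 on none. The summed signal of this list was nevertheless 999 to 1214 with 5-Aza and 729 to 865 in controls, and the endothelial gene VWF had signals of 24.5, 68.9 and 72.2 against 11.2, 20.4 and 7.7. VWF was the gene of this list past the unadjusted threshold and had its highest log2 fold change, 1.95. It was above background on 2 treated arrays and on 0 controls, so this value is uncertain. The largest value below 0 was that of COL3A1, at -2.23 (SE 1.06), with signals above background on 2 of the 6 arrays. For ACTB, the 3′ minus 5′ log2 signal, which reads RNA integrity, was 0.73 ± 0.086 with 5-Aza and 0.54 ± 0.077 in controls (SD, n = 3 each, exact permutation p = 0.1), without overlap. For GAPDH it was 0.18 ± 0.048 and 0.13 ± 0.029 (SD, n = 3 each, exact permutation p = 0.2), with overlapping groups. The part of these differences in the values of the 10 genes was not tested.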

How the data were processed

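Total RNA of HT-29 cells was measured on 6 HGU133 Plus 2.0 arrays, 3 of 5-Aza-treated and 3 of control cells, grouped by the labels. The deposited table holds linear intensity values, 1 for each probe set and array, which the authors made with the affy package according to the submitters' processing notes. Its version and the background and summary methods are not given in the sources used here. The mean of each array without its lowest and highest 2 percent was 500.

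From these values log2(signal + 1) was computed, 61 control probe sets were left out, and 54614 probe sets were compared in limma 3.58.1 (R 4.3.3) with the group as the only term and Benjamini-Hochberg adjustment over all of them. Calls were read at an adjusted p under 0.05 and an unadjusted p under 0.025. Single pairs were compared by exact permutation tests (two-sided, Python 3.11.15 with SciPy 1.17.1). The background level of an array was the highest of its 3 TrpnX signals. Arrays numbered alike were not paired (deviation correlations of -0.012, 0.002 and 0.01). The sources do not say that arrays came from separate cultures, so p-values cover only the spread between arrays, which may be technical, and their number limits the precision. Arrays correlated at 0.926 to 0.934 and none was a copy of another. The limma step was tested on simulated data.

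Each gene was represented by its strongest probe set with a single symbol, _x_at kinds only where it had no other, and 256 genes, PSME2 among them, by a probe set with several symbols whose RefSeq accession belongs to them. All probe sets of the 10 genes, the genes of the 9 pairs and, of each other list, up to 4 genes past the unadjusted threshold or else the 2 with the largest fold change were to be named. The 10 genes and the 10 other lists were chosen with earlier results of these data known. Alternatives were 16 added in place of 1, quantile normalization, median centring, trend and robust variance, a SAM-type statistic, a filter at the median signal, leaving out _x_at probe sets, averaging the probe sets of a gene, the ratio of mean signals, the replicate number as a block, and leaving out each array.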

Additional observations from a re-analysis of the deposited data

How the results depend on the processing

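The number of genes higher at an unadjusted p under 0.025 (3) was 0 with median centring or a replicate block, 5 with trend and robust variance and 0 to 2 without 1 array (0 without any 5-Aza array or control 2). It was 2 with the probe sets of a gene averaged. For probe sets (3 higher, 0 lower), median centring gave 0 and 1, the replicate block 0 higher, trend and robust variance 6 higher, leaving out 1 array 0 to 2 higher (0 without any 5-Aza array, 1 without control 2), and quantile normalization or the filter at the median signal 1 lower, TAP2 204769_s_at. Genes without overlap (7 higher, 0 lower) became 3 and 1 with median centring, and 0 to 1 were lower without 1 array. Probe sets without overlap (8 higher, 1 lower) became 3 and 2 with median centring, and 1 to 2 were lower without 1 array (2 without control 1). The median of the 10 genes (0.42) was 0.23 with median centring, 0.26 with the probe sets of a gene averaged and 0.34 to 0.55 without 1 array, the highest without control 3. With trend and robust variance 0 probe sets of the 10 genes, of 23 in all, passed an adjusted p under 0.05. PSME1 reversed to -0.12 with median centring and ranged from -0.0032 to 0.11 without 1 array. Near background, TAP2 208428_at was -0.14 with 16 added, -0.90 as a ratio of mean signals and -0.43 to 1.65 without 1 array, ERAP1 214012_at was -0.20 with quantile normalization, -0.17 with median centring and -0.35 to 0.36 without 1 array, and ERAP1 214034_at -1.17 to 0.36. With averaged probe sets, PSMB10 minus PSMB7 was -0.14, TAP1 minus TAP2 0.37 and ERAP1 minus ERAP2 -0.72, and without 1 array they ranged from -0.066 to 0.10, -0.11 to 0.058 and -0.16 to 0.36. TAP1 minus PSMB9 ranged from -1.95 to -0.50 and PSMB9 minus PSMB6 from 1.19 to 2.85. The shares of all genes and probe sets past the unadjusted threshold or without overlap under these settings are not given here. The causes were not tested.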
